A study of Mus musculus with 14 samples.

Results

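The genes described here are 6 genes of the lymphocyte egress program: Foxo1 and Klf2, which encode transcription factors, S1pr1, S1pr4 and S1pr5, which encode receptors for sphingosine 1-phosphate (S1P), and Cd69, which encodes an inhibitor of S1PR1. They were chosen by symbol from the 19937 genes with a named probe set on the array, and each was read by 1 probe set with a single gene symbol. All 6 were among the 13641 genes tested. S1pr1 entered the test through its spleen arrays, because it exceeded the filter level of 6.76 (log2) on the 9 spleen arrays and on none of the 5 thymus arrays, whereas the other 5 genes exceeded it on all 14 arrays.

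S1P is high in blood and lymph and low inside lymphoid tissue, and T cells that carry S1PR1 follow this gradient out of the thymus, spleen and lymph nodes. In T cells FOXO1, a factor held out of the nucleus by PI3K-AKT signalling, drives transcription of Klf2, and KLF2, a zinc-finger factor linked to quiescence, drives transcription of S1pr1. CD69 appears early after activation of a T cell, binds S1PR1 at the membrane and takes it off the surface, so that the cell stays in the tissue.

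Gene expression was measured on 14 Affymetrix mouse arrays, 1 for each sample of sorted T cells from C57BL/6 mice, whose genotype labels are wild type (WT) and ENK KO. Immature CD4+CD8+ thymocytes from the thymus made up 3 WT and 2 ENK KO samples, and CD8+ T cells from the spleen made up 4 WT and 5 ENK KO samples. The labels give each sample a number, and do not say outright that each is a separate animal. The design compares the genotypes within each cell population. The labels do not spell out ENK or describe the allele, and the series title names Engrailed-2. All WT samples were from mice of 7 months. The thymus ENK KO samples were replicate 29, from a male of 7 months, and replicate 1, from a female of 2 months. The spleen ENK KO samples were replicates 31, 28 and 25, males of 7, 6 and 9 months, and replicates 3 and 6, females of 2 months, so that age and sex coincided within this genotype. The WT females were thymus replicate 7 and, as labelled, spleen replicate 22. Values are log2 expression levels made by the authors with RMA, and array medians ran from 7.14 to 7.25.

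Several labels were at odds with marker genes. The library labelled spleen ENK KO replicate 28 had Cd4 at 12.20, Cd8a at 6.78 and Cd8b1 at 9.10 on the log2 scale. The other 8 spleen arrays had Cd4 at or below 6.92, Cd8a at or above 12.06 and Cd8b1 at or above 13.20. Foxp3 and Il2ra, which mark regulatory T cells, stood at 9.87 and 11.14 on that array, and were at most 7.48 and 7.12 on the other spleen arrays. Results that involve spleen ENK KO are therefore given with and without replicate 28. Spleen WT replicate 22, labelled female, had Xist at 5.90, a level also seen on male arrays. The labelled females of the other groups reached 12.6 to 13.4. Kdm5d, a Y-linked gene, was 9.65 to 9.85 on all 4 spleen WT arrays, replicate 22 among them. In the groups that hold the other labelled females its lowest values were 5.82 to 6.41. On the thymus arrays Cd4 was 12.9 to 13.1 and Rag1, the recombinase of developing lymphocytes, was 12.8 to 13.2. En2 stood at 6.19 to 6.93 in spleen WT and at 6.12 to 7.87 in spleen ENK KO arrays other than replicate 28, so its level does not separate the genotypes. WT and ENK KO are used below as labels.

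The sequence just before the transcription start is shown for the 4 genes that the promoter table used here holds, because Klf2, Foxo1 and S1pr4 differ together between thymus and spleen, and factors of the KLF and FOXO families belong to the set. S1pr5, which did not pass that test, is shown beside them. The windows are the 250 bases upstream, from RefSeq on build GRCm38.p6, written 5′ to 3′ on the gene's own strand. Capitals mark matches to KLF-type motifs.
Klf2 promoter, chr8:72318812-72319061, plus strand: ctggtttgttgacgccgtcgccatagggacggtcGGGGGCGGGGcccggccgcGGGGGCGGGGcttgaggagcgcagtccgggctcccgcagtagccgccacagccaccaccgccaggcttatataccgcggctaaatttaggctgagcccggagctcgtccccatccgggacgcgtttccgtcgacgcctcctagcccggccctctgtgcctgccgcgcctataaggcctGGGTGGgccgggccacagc
Foxo1 promoter, chr3:52268087-52268336, plus strand: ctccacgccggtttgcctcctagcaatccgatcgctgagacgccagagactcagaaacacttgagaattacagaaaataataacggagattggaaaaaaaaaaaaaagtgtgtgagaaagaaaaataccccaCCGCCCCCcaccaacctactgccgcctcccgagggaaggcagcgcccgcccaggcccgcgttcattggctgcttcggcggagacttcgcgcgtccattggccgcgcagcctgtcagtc
S1pr4 promoter, chr10:81500138-81500387, minus strand: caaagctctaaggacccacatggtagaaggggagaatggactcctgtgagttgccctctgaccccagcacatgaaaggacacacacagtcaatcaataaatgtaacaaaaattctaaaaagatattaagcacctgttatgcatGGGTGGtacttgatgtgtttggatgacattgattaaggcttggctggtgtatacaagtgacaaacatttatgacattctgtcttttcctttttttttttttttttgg
S1pr5 promoter, chr9:21248444-21248693, minus strand: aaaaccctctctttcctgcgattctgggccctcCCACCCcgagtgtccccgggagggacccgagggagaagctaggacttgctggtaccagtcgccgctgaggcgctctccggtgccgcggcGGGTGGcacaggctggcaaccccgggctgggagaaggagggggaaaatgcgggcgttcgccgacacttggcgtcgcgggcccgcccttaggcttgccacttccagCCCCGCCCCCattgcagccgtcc

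The motifs searched were CCACCC and CCNCNCCC for KLF factors, GTAAACA and GTAAATA for FOXO factors and AGGTGTGA for T-box factors, on both strands. The Klf2 window held 1 match to CCACCC and 4 to CCNCNCCC, which overlapped each other in pairs within a pair of GC-rich blocks. The Foxo1 window held 1 match to CCNCNCCC, the S1pr4 window 1 to CCACCC, and the S1pr5 window 2 to each motif, those to CCNCNCCC overlapping. Of 32851 windows of the same length, 28.1% held CCACCC and 45.9% held CCNCNCCC, so such matches are common. None of the 4 windows held the FOXO or T-box letters, which occurred in 3.17%, 2.73% and 1.12% of all windows in the order given above. GC content was 71.2% at Klf2, 69.2% at S1pr5, 56.0% at Foxo1 and 38.8% at S1pr4, beside a median of 52.4% over all windows. The S1pr4 window contained no CpG, whereas Klf2, S1pr5 and Foxo1 had 29, 22 and 20, beside a median of 6. A match describes letters in this window and is not a measured binding site. S1pr1 on chromosome 3 and Cd69 on chromosome 6 are named only.

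The first comparison asks how the 6 genes differ between the immature thymic and the mature splenic population. In WT mice 5 of the 6 genes were higher in spleen CD8+ cells at an adjusted p under 0.05 (limma, Benjamini-Hochberg over 13641 genes), beside 30.5% of all genes tested. The exception was S1pr5, and S1pr1 had to differ, since it passed the filter through its spleen arrays alone. The median difference was 2.18 log2 units over the 6 genes and -0.04 over all genes tested. Population and tissue change together here, so the effect of either cannot be told apart. If the arrays of each tissue were processed apart, which the sources do not say, processing changed with them. In sorted bulk samples, fewer cells expressing a gene and less RNA per cell cannot be told apart either.

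Many markers of other blood cells were higher in spleen in this comparison, and some were lower. The mean of 5 B cell markers was 6.87 to 7.00 in WT thymus and 7.83 to 8.28 in WT spleen, and 3 of the 5 were called higher in spleen in each genotype, Ms4a1 by 2.06 in WT (limma). Of the B cell markers Cd79b was not called and had a lower mean in WT spleen (9.53) than in WT thymus (9.80). The mean of 4 platelet markers was 6.30 to 6.40 and 7.20 to 7.45, with 2 of 3 tested called higher. Of all genes tested 30.5% were called higher in WT and 27.4% in ENK KO. Alas2, the 1 red cell marker measured, was 6.56 to 6.91 and 8.39 to 9.09. Means of 7 myeloid markers were 6.20 to 6.28 and 6.29 to 6.49, those of 5 NK cell markers 5.84 to 5.87 and 5.93 to 6.30, and those of 6 endothelial markers 6.91 to 6.96 and 6.98 to 7.13. Of 4 myeloid markers tested in WT 1 was called higher and 1 lower, the latter Itgam (-0.94, adjusted p 2.18e-05, limma). The NK cell marker Klrb1c also had a lower mean in WT spleen (4.85) than in WT thymus (5.48), both below the filter level. Values on an array do not reach 0, and Ms4a1 in thymus lay at 5.18 to 5.38, below the filter level. The part of such cells in the differences of the 6 genes was not tested.

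Foxo1, the factor upstream of Klf2, was at 9.41, 9.39 and 9.70 in WT thymus replicates 32, 38 and 7. In WT spleen it was at 11.71, 11.74, 11.58 and 11.65 in replicates 22, 34, 37 and 40. The groups did not overlap, and Foxo1 was 2.17 log2 units higher in spleen (SE 0.10, 4.50-fold, adjusted p 5.67e-10, limma). In ENK KO thymus Foxo1 was 9.55 and 9.64 in replicates 1 and 29, and in ENK KO spleen it was 11.85, 11.87, 11.58, 11.60 and 11.53 in replicates 25, 28, 3, 31 and 6. The difference within ENK KO was 2.09 log2 units (SE 0.11, adjusted p 2.62e-09, limma).

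Klf2 was at 7.86, 8.01 and 7.70 in WT thymus and at 10.64, 10.65, 10.81 and 10.65 in WT spleen, with replicates in the same order. Every spleen array lay above every thymus array, and the difference was 2.83 log2 units (SE 0.12, 7.11-fold, adjusted p 2.85e-10, limma). Within ENK KO, Klf2 was 7.85 and 7.86 in thymus and 10.61, 10.71, 10.52, 10.90 and 10.29 in spleen. These groups were also separate, and the difference was 2.75 log2 units (SE 0.13, 6.73-fold, adjusted p 1.21e-09, limma). Among the 13641 genes, 112 had a larger spleen difference than Klf2 in WT mice.

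S1pr1, the receptor for exit from thymus and lymph nodes, showed the largest difference of the 6 genes. It stood at 6.55, 6.55 and 6.40 in WT thymus and at 12.31, 12.02, 12.01 and 12.02 in WT spleen. The difference was 5.59 log2 units (SE 0.13, adjusted p 1.88e-12, limma), and 7 of the 13641 genes had a larger one. In ENK KO mice S1pr1 was 6.68 and 6.55 in thymus and 11.78, 12.41, 12.02, 12.04 and 11.84 in spleen, a difference of 5.40 log2 units (SE 0.14, adjusted p 7.93e-12, limma). The thymus values lay below the filter level in every array, so the fold rests on a level near the low end of the array's range and is approximate.

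S1pr4, a receptor largely restricted to blood and lymphoid cells, was at 8.34, 8.18 and 8.60 in WT thymus and at 10.67, 10.53, 10.47 and 10.58 in WT spleen. It was 2.19 log2 units higher in spleen (SE 0.08, 4.55-fold, adjusted p 1.09e-10, limma). The ENK KO arrays had 8.34 and 8.38 in thymus and 10.62, 10.58, 10.63, 10.57 and 10.63 in spleen, a difference of 2.24 log2 units (SE 0.09, adjusted p 2.66e-10, limma). The groups did not overlap in either genotype.

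S1pr5, a receptor used by NK cells to leave bone marrow and carried by circulating effector T cells, did not pass the test in either genotype. In WT mice it was 7.16 on all 3 thymus arrays, the same value to 4 decimals, and 7.62, 7.50, 8.05 and 7.76 on the spleen arrays. The WT groups did not overlap, and the difference was 0.57 log2 units (95% confidence interval -0.01 to 1.15, adjusted p 0.0741, limma). Without spleen ENK KO replicate 31, which enters this comparison only through the shared estimate of the spread, the same difference had an adjusted p of 0.00329 (limma). On the ENK KO arrays S1pr5 was 7.14 and 7.29 in thymus and 7.29, 7.31, 7.25, 8.61 and 7.78 in spleen. Replicates 25, 28 and 3 lay at the thymus level, the groups overlapped, and the difference was 0.43 log2 units (adjusted p 0.213, limma).

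Cd69 was higher in spleen, in the same direction as the receptor it inhibits. It was at 10.22, 10.58 and 10.25 in WT thymus and at 11.70, 12.17, 12.31 and 11.28 in WT spleen, a difference of 1.52 log2 units (SE 0.36, 2.86-fold, adjusted p 0.00218, limma). In ENK KO mice it was 9.79 and 10.22 in thymus and 10.55, 11.62, 10.76, 12.20 and 10.82 in spleen. The ENK KO groups did not overlap, and the difference was 1.18 log2 units (SE 0.39, adjusted p 0.0182, limma). This ENK KO call was lost without thymus ENK KO replicate 1, which left 1 thymus array of that genotype (0.97 log2 units, adjusted p 0.144, limma).

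The same 5 of 6 genes passed the test as higher in spleen within ENK KO, beside 27.4% of all genes tested. Every spleen array lay above every thymus array for 6 of 6 genes in WT, beside 32.6% of all genes, and for 5 of 6 in ENK KO, beside 29.9%. S1pr1 is in each of these counts and had to differ, since it passed the filter through its spleen arrays alone. With replicate 28 left out, the ENK KO differences were 5.30 for S1pr1, 2.72 for Klf2, 2.25 for S1pr4, 2.05 for Foxo1 and 1.08 for Cd69 on the log2 scale, and all 5 still passed (adjusted p at most 0.0335, limma), beside 27.9% of all genes. S1pr5 did not (0.52, adjusted p 0.149, limma).

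**Figure D1:**
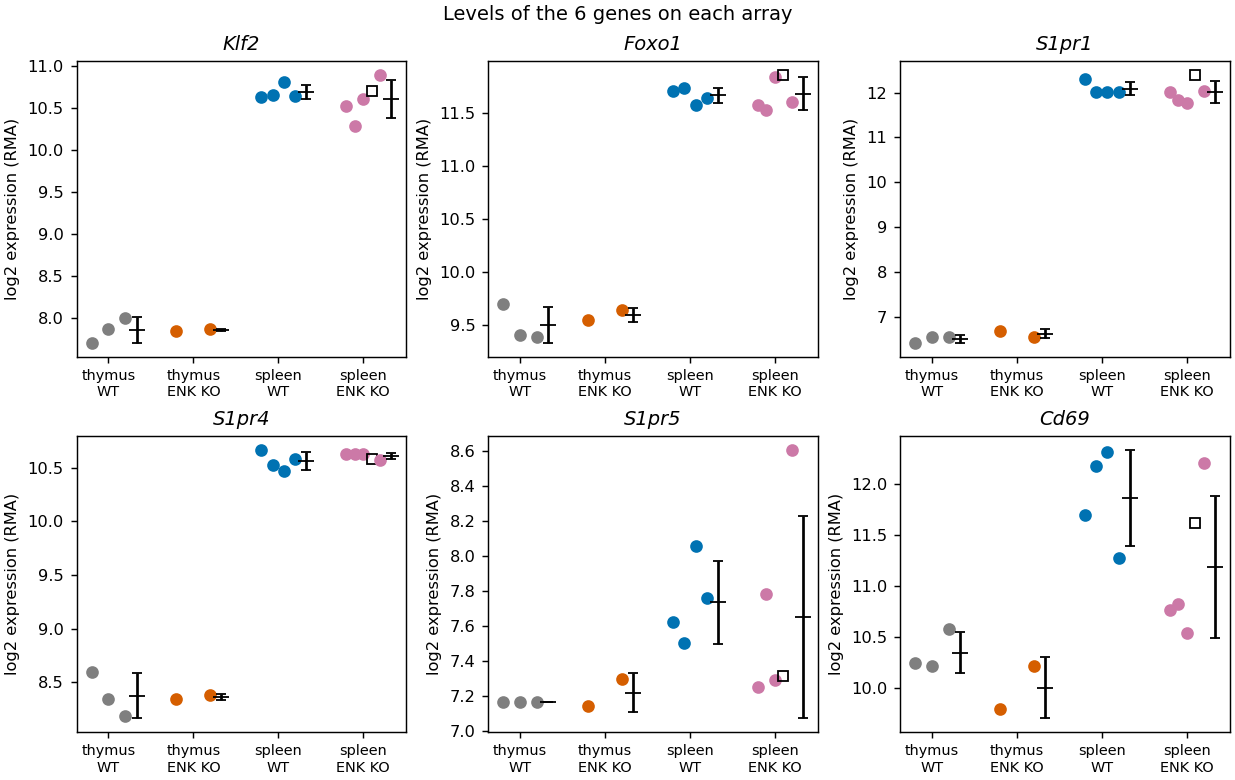
Log2 expression (vertical axis) of the 6 genes on each of the 14 arrays, by group on the horizontal axis. Points are arrays, horizontal ticks are group means and error bars are SDs, and the open square is the library labelled spleen ENK KO replicate 28. Klf2, Foxo1, S1pr1 and S1pr4 separate the tissues completely, with the genotypes side by side, whereas Cd69 and S1pr5 spread widely within the spleen groups. Each vertical axis has its own range and does not start at 0.

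The order of the 4 group means was the same kind for Klf2, Foxo1, S1pr1 and S1pr4: both thymus groups lay below both spleen groups, and the genotypes overlapped within each tissue. For Cd69 and S1pr5 the thymus means also lay below the spleen means, but neighbouring groups overlapped at every step of the order. In thymus the genotypes only met at a shared value for S1pr1 (6.5536) and Cd69 (10.2178). Spread within the spleen groups differed among the 6 genes. The SD of Cd69 was 0.47 in WT and 0.70 in ENK KO spleen, above the SDs of 98.95% and 98.77% of the genes tested. The SD of S1pr5 was 0.24 and 0.58, above those of 94.36% and 98.25%. S1pr4 in ENK KO spleen varied least, with an SD of 0.03 over 5 arrays, above those of 5.25% of the genes.

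Lists of genes around the program, chosen with earlier results of these data known, place the 6 genes in context in the WT comparison. Shares of all genes tested were 30.5% called higher and 38.2% called lower in spleen. All 7 tested genes of homing and survival were called higher, with a median of 2.78 log2 units beside -0.04 for all genes tested. Il7r, the IL-7 receptor chain (6.93), was above the filter level on 1 of 5 thymus arrays and passed through its spleen arrays, so it had to differ. The other called genes included Ccr7, which guides T cells into lymph nodes (4.25), the integrin gene Itgb7 (2.78) and the survival gene Bcl2 (2.32). Of 12 tested retention and effector genes 8 passed the filter through spleen arrays alone, which fixes their direction, and 6 of these 8 were called higher. They include Eomes and Tbx21, T-box factors of effector and memory cells, and the chemokine receptor gene Cxcr6, with values of 5.02, 3.20 and 3.57 that are approximate because no thymus array exceeded the filter level. Of the other 4 genes 2 were called higher and 0 lower, among them the perforin gene Prf1 (2.41).

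The upstream and downstream partners of the receptors were split between directions. Read against the 30.5% of all genes called higher, the counts called higher in these lists are no result about them. Of 20 tested FOXO and PI3K-AKT genes 6 were called higher and 11 lower, with a median of -0.24. Pik3cd, the leukocyte PI3K catalytic subunit, was 8.32-fold higher in spleen (3.06 log2 units), Foxp1, which competes with FOXO1 in naive T cells, was 0.58 higher, and Pik3ca and Pdpk1 were lower (-0.80 and -0.92). Of 19 tested genes of G protein coupling and motility 7 were higher and 8 lower. Of these 7, 1 passed the filter through spleen arrays alone and so had to be higher. Arrb2, a beta-arrestin (1.34), Dock2 (0.67) and Rac2 (0.63) were higher and Rock1 (-0.58) was lower. Of 9 tested genes of S1P metabolism and other S1P receptors 3 were higher and 3 lower, among them the S1P lyase gene Sgpl1 (0.90), the ceramidase gene Acer2 (0.93) and the lipid phosphatase gene Plpp3 (-0.40), which passed the filter through thymus arrays alone and so had to be lower. Of 10 other KLF genes 4 were higher and 3 lower, with Klf9 (1.28) and Klf16 (1.06) higher and Klf10 (-1.51) and Klf7 (-0.89) lower.

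In ENK KO mice 27.4% of all genes tested were called higher and 37.1% lower. The counts called higher and lower were 7 and 0 for homing, 7 and 0 for retention and effector genes (5 of these 7 passed the filter through spleen arrays alone), 5 and 12 for FOXO and PI3K-AKT, 7 and 8 for G protein coupling, 5 and 3 for S1P metabolism and 2 and 3 for the KLF genes. Of the 7 homing and the 7 G protein genes called higher, 1 each passed the filter through spleen arrays alone. Without replicate 28 the KLF count called higher was 4. Medians in ENK KO, leaving aside the effector list, were 2.88, -0.26, -0.04, 0.21 and 0.19 in the same order, beside -0.06 for all genes tested. Some listed genes, Tcf7, Grk2 and Zfp683 among them, were not analysed here.

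**Figure D2:**
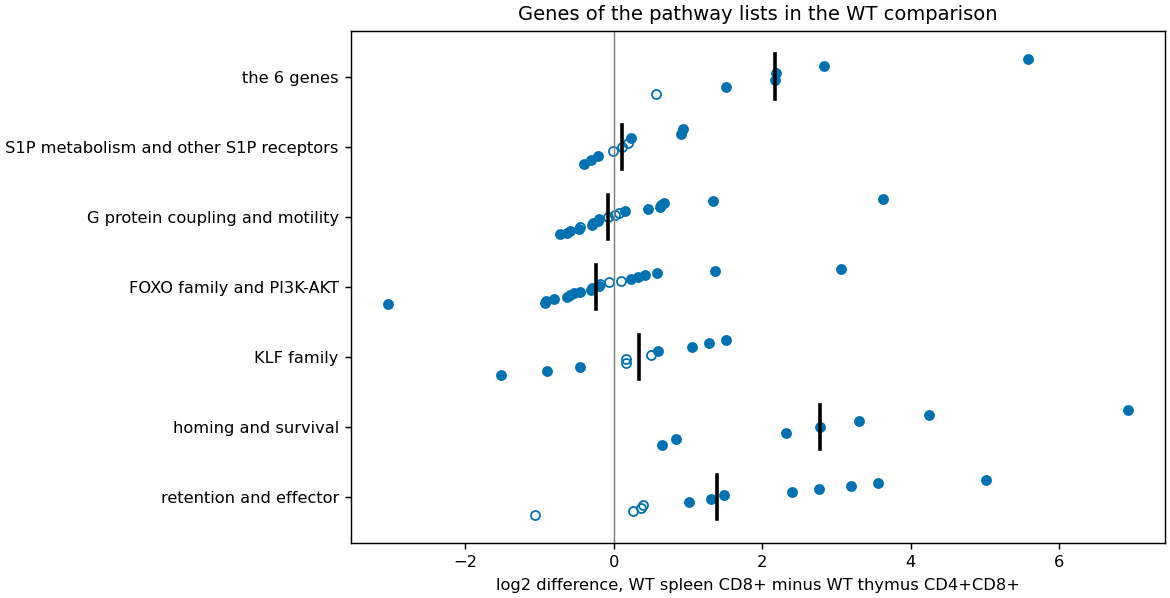
Log2 difference between WT spleen CD8+ cells and WT thymus CD4+CD8+ cells (horizontal axis) for each tested gene of the 6 lists and for the 6 genes described here. Filled points passed an adjusted p under 0.05 (limma), open points did not, and vertical bars are list medians. S1pr1 at 5.59 and the homing genes lie to the right. S1pr1, Il7r, 8 of the 12 effector genes, 1 G protein gene and 1 KLF gene passed the filter through spleen arrays alone. The S1P metabolism, G protein, FOXO and KLF lists straddle 0.

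The genotype comparison in spleen, the question of the design for mature T cells, called 0 of the 6 genes (limma), beside 0.00733% of all genes tested. At an unadjusted p under 0.05 the count was also 0 of 6, beside 8.37% of all genes. From the levels given above, WT and ENK KO arrays overlapped for each of the 6 genes. The ENK KO minus WT difference was -0.08 log2 units for Klf2 (95% confidence interval -0.30 to 0.14), 0.02 for Foxo1 (-0.17 to 0.20), -0.07 for S1pr1 (-0.32 to 0.17) and 0.04 for S1pr4 (-0.11 to 0.20). S1pr5 was less tightly bounded, with a difference of -0.08 (-0.59 to 0.42).

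Cd69 had the largest genotype difference of the 6 genes. Its mean was 11.19 ± 0.70 (SD, n = 5) in ENK KO and 11.87 ± 0.47 (SD, n = 4) in WT spleen, a difference of -0.68 log2 units (95% confidence interval -1.36 to 0.01, unadjusted p 0.0528, adjusted p 0.600, limma). Of the 13641 genes, 35 had a lower value of this difference. ENK KO replicates 3, 6 and 25 lay below all WT arrays, and ENK KO replicates 28 and 31 lay within the WT range. Without replicate 28 the difference was -0.78 (-1.50 to -0.06, unadjusted p 0.0359, adjusted p 0.486, limma), and 0 of the 6 genes were called, beside 0.0147% of all genes. The low arrays include both 2-month-old females and the 9-month-old male, and age cannot be told apart from sex among them. The difference was -0.44 with an age of 2 months as a covariate and -0.61 with the labelled sex as a covariate (adjusted p 0.724 and 0.650, limma). Without the 2-month-old animals the difference was -0.41. The sex covariate counts spleen WT replicate 22 as female, although its Xist and Kdm5d levels go against that label. The value of -0.61 therefore depends on a doubtful label.

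The mean of 4 platelet markers was 7.20 to 7.45 on the WT and 6.85 to 7.04 on the ENK KO spleen arrays. Of these markers only Ppbp separated the genotypes clearly. Itga2b (7.66 to 7.83 in WT, 7.59 to 7.90 in ENK KO) and Gp9 (7.46 to 7.57 and 7.28 to 7.49) overlapped. Pf4 met at 5.86 (5.86 to 6.03 and 5.72 to 5.86). Ppbp, which encodes a platelet chemokine, was the 1 gene of 13641 called between genotypes in spleen (-1.44 log2 units, SE 0.17, adjusted p 0.0215, limma), with WT at 7.70 to 8.46 and ENK KO at 6.49 to 7.26. B cell marker means were 7.83 to 8.28 in WT and 7.18 to 8.22 in ENK KO, with 0 of 5 called (limma). The part of such cells in the genotype differences of the 6 genes was not tested.

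Leaving out replicate 28 moved the other spleen differences to -0.11 for Klf2, -0.03 for Foxo1, -0.17 for S1pr1 and 0.05 for S1pr4, with S1pr5 at -0.00060 (adjusted p at least 0.518 for these 5 genes, limma). The S1pr1 value is the one that moved most, since replicate 28 held the highest S1pr1 level of the spleen ENK KO group. Its interval was then -0.35 to 0.01.

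In thymus 0 of the 6 genes were called between genotypes (limma), beside 0.0147% of all genes tested, with 0 of 6 also at an unadjusted p under 0.05, beside 3.53% of all genes. Differences were -0.0016 for Klf2, 0.09 for Foxo1, 0.12 for S1pr1, -0.01 for S1pr4 and 0.05 for S1pr5 on the log2 scale. The genotypes overlapped, though for S1pr1 and Cd69 they only met at a shared value (6.5536 and 10.2178). Cd69 was again the lowest of the 6, at -0.34 (95% confidence interval -1.27 to 0.59, adjusted p 1, limma). With 3 and 2 arrays these intervals are wide. The difference of the genotype effect between spleen and thymus was not called for any of the 6 genes (adjusted p 0.9995, limma), beside 0.00733% of all genes, nor at an unadjusted p under 0.05, beside 2.99%, and its value for Cd69 was -0.33 (-1.49 to 0.82).

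Of the listed partner genes 0 were called between genotypes in either tissue (limma). In spleen the genes of smallest unadjusted p were Stk4, a kinase of the Hippo pathway needed for naive T cell exit (0.10 log2 units, p 0.0376), Rac2, a small GTPase of blood cells (-0.09, p 0.0411), Plpp3 (-0.12, p 0.0463) and Mtor (0.09, p 0.0474), each with an adjusted p of 0.595 (limma). Klf6, a factor induced early in activation, had a value of -0.47 with a standard error of 0.37, and Prf1 a value of -0.37 with a standard error of 0.19. In thymus Il7r had the smallest p, at 0.40 log2 units (unadjusted p 0.0376, adjusted p 1, limma). List medians in spleen ran from -0.09 to 0.04, beside -0.01 for all genes tested. Without replicate 28 they ran from -0.09 to 0.05, beside -0.01, and 0 of the listed genes were called in spleen (limma).

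**Figure D3:**
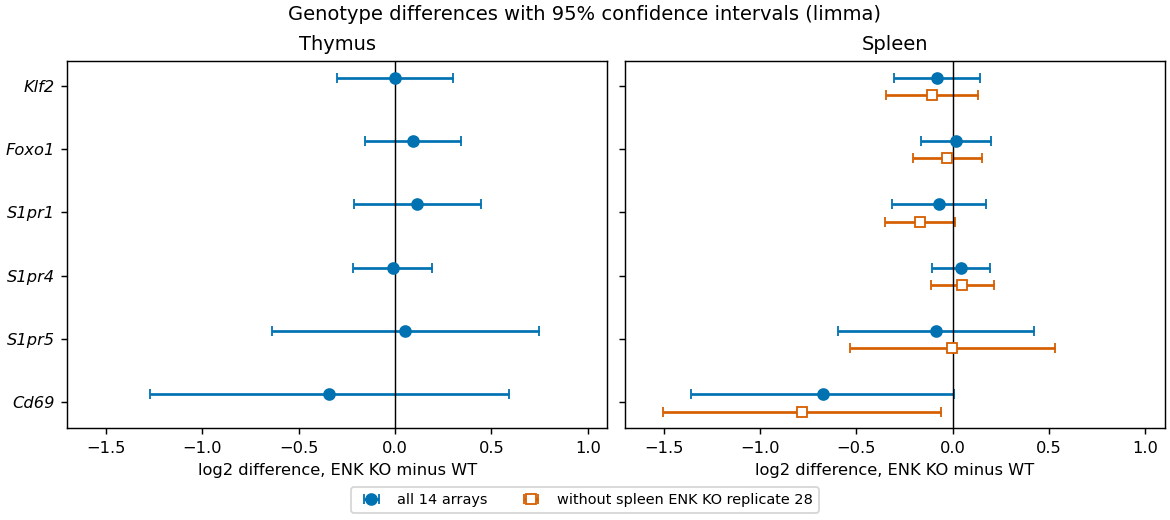
ENK KO minus WT difference (horizontal axis, log2 units) of the 6 genes in thymus and in spleen, with 95% confidence intervals from limma. Filled circles use all 14 arrays and open squares leave out replicate 28. With all arrays each interval includes 0, and the Cd69 interval in spleen, -1.36 to 0.01, is the one nearest to leaving it out.

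The spleen arrays also show how the 6 genes vary together. The 15 pairs were compared over the 9 spleen arrays with two-sided exact permutation tests, adjusted over the 15. At an adjusted p under 0.05 there were 0 pairs by Pearson's r and 0 by Spearman's rho. At an unadjusted p under 0.05 there were 2 pairs by each measure. Pearson's r was above 0 in 9 pairs and below 0 in 6, and 13 of the 15 kept their sign without replicate 28. Every r is over arrays of both genotypes in 1 deposited table.

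Klf2 and its target S1pr1 had r = 0.36 and rho = 0.46 (exact permutation p 0.331 and 0.225, adjusted p 0.545 and 0.481, n = 9), so no relation between them was detectable over these arrays. Foxo1 and Klf2 had r = 0.21, and Foxo1 and S1pr1 had r = 0.34, which became -0.09 without replicate 28. S1pr1 ranged over 0.63 log2 units among ENK KO and 0.30 among WT spleen arrays.

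Klf2 and Cd69 had the highest r, 0.74, with rho = 0.83 (exact permutation p 0.0138 and 0.00827, adjusted p 0.207 and 0.0915, n = 9). Without the pair of arrays farthest from the Klf2 median, ENK KO replicates 6 and 31, r was 0.77 (exact permutation p 0.0375, n = 7). With each array centred on its group mean r was also 0.74. S1pr4 and Cd69 had r = -0.69 and rho = -0.66 (exact permutation p 0.0370 and 0.0589, adjusted p 0.277 and 0.221, n = 9), and r was -0.91 without WT replicates 37 and 22 (exact permutation p 0.00635, n = 7). This pair was called in the 8 arrays without WT replicate 22 (r = -0.88, adjusted exact permutation p 0.0312). S1pr4 varied over 0.06 log2 units in ENK KO and 0.20 in WT spleen. Klf2 and S1pr4 had r = -0.57 and rho = -0.80 (exact permutation p 0.106 and 0.0122, adjusted p 0.364 and 0.0915, n = 9). S1pr5 and Cd69 had r = 0.59 (exact permutation p 0.0899, adjusted p 0.364, n = 9), and r was 0.18 without ENK KO replicate 31 and WT replicate 37, so the value rests on those arrays.

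**Figure D4:**
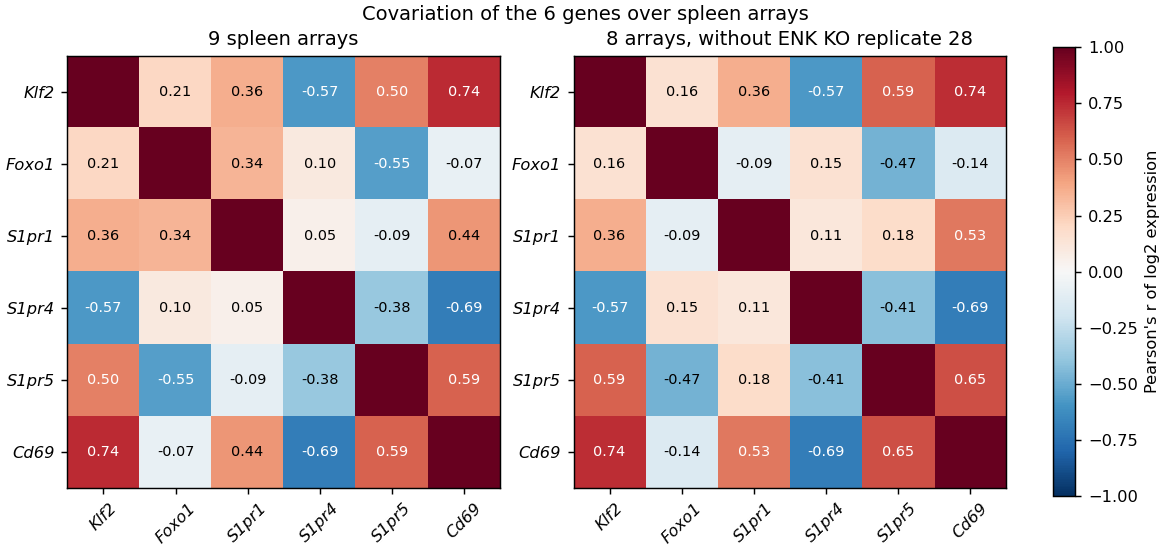
Pearson's r of log2 expression between the 6 genes over the 9 spleen arrays (left) and over the 8 arrays other than replicate 28 (right). Red is above 0 and blue below. Klf2 with Cd69 (0.74) and S1pr4 with Cd69 (-0.69) are the strongest cells in both, and Foxo1 with S1pr1 changes from 0.34 to -0.09.

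A further 48 relations of Klf2, S1pr5 and Cd69 with genes of the homing, effector and KLF lists were examined after the data were seen and were adjusted together with the 15 pairs, 63 in all. By Pearson's r 9 of the 63 had an adjusted p under 0.05 (exact permutation, two-sided, n = 9), and 5 of these 9 also did without replicate 28. The 4 that did not were Klf2 with Klf9, S1pr5 with Gzma and Gzmb, and Cd69 with Itga1, with adjusted p from 0.0521 to 0.0596 (exact permutation, n = 8). Klf2 with Klf11 was called without replicate 28 but not over 9 arrays (r = 0.94, adjusted exact permutation p 0.00938, n = 8). So was Cd69 with Prdm1, which encodes a transcriptional repressor (r = 0.87, adjusted exact permutation p 0.0388, n = 8). Over 9 arrays the r of Cd69 with Prdm1 was 0.73 (adjusted exact permutation p 0.139). By Spearman's rho the count over 9 arrays was 2. The share of all genes tested that vary as strongly with Klf2, S1pr5 or Cd69 over the 9 arrays was not determined. These counts, and the counts by list below, are therefore no result about the lists.

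Klf2 varied with 3 of the 10 other KLF genes, a count without a share of all genes tested beside it. Its r was 0.92 with Klf4 (adjusted exact permutation p 0.0297, n = 9), 0.84 with Klf6 (0.0297) and 0.83 with Klf9 (0.0444), and rho was 0.77, 0.92 and 0.92 (adjusted p 0.112, 0.0413 and 0.0413). With Klf11 r was 0.73 over 9 arrays and 0.94 without replicate 28. Without ENK KO replicates 6 and 31, the lowest and highest in Klf2, r was 0.66, 0.69 and 0.76 for Klf4, Klf6 and Klf9 (exact permutation p 0.0944, 0.0796 and 0.0522, n = 7), so these relations rest in part on those arrays. For 4 of the 10 r was below 0: Klf3 (r = -0.52, rho = -0.73, adjusted exact permutation p 0.366 and 0.140, n = 9), Klf13 (-0.31), Klf16 (-0.30) and Klf10 (-0.0039). With the 7 homing genes, 0 relations of Klf2 had an unadjusted p under 0.05.

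S1pr5 varied with 5 of the 12 effector genes: Cx3cr1, a chemokine receptor gene of circulating effector cells (r = 0.91), Gzma and Gzmb, which encode granzymes (0.90 and 0.88), Zeb2, a factor of terminal effector differentiation (0.90), and the integrin gene Itga1 (0.88), with adjusted exact permutation p from 0.0297 to 0.0444 (n = 9). ENK KO replicate 31, which had the highest S1pr5 (8.61), was also highest in Zeb2 (7.73), Cx3cr1 (8.39), Gzma (9.37) and Gzmb (9.45). Without this array r was 0.64 to 0.74 for the 5 genes. Genes outside the list that were also high on replicate 31 were not counted, so 5 of 12 cannot be read against all genes tested. Without replicate 31 and WT replicate 37 r was 0.87 for Zeb2, 0.83 for Cx3cr1 and 0.95 for Gzma (exact permutation p 0.00893, 0.0246 and 0.00337, n = 7), and 0.65 for Gzmb and 0.63 for Itga1 (p 0.0853 and 0.146, n = 7). Zeb2 exceeded the filter level on 2 of the 9 spleen arrays, Itga1 on 4, Gzma on 6 and Gzmb on 7. The mean of 5 NK cell markers on replicate 31 was 6.15, within the range of 5.80 to 6.30 over the spleen arrays. Of these markers Klra8 was highest on replicate 31 (5.94), and Ncr1, Klrb1c, Tyrobp and Fcer1g were each higher on some other spleen array. The part of such cells in the values of replicate 31 was not tested.

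Cd69 varied with Itga1 (r = 0.79, rho = 0.88, adjusted exact permutation p 0.0329 and 0.0656, n = 9), and r was 0.57 without ENK KO replicates 25 and 3. The same 3 arrays that were lowest in Cd69, ENK KO replicates 3, 6 and 25 (10.55 to 10.82), were lowest in Klf6 (9.26 to 9.77, against 10.18 to 11.18 on the other 6) and in Fos (9.04 to 9.35, against 10.21 to 11.03), which encodes an immediate-early factor and was picked once its values had been seen. Whether the low Cd69 and the low Fos share a source was not tested. On replicate 6 the mean of 7 myeloid markers was the highest of the spleen arrays (6.98, in a range from 6.17, with Lyz2 at 8.18 and S100a8 at 7.62), and the part of such cells in its values was not tested.

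**Figure D5:**
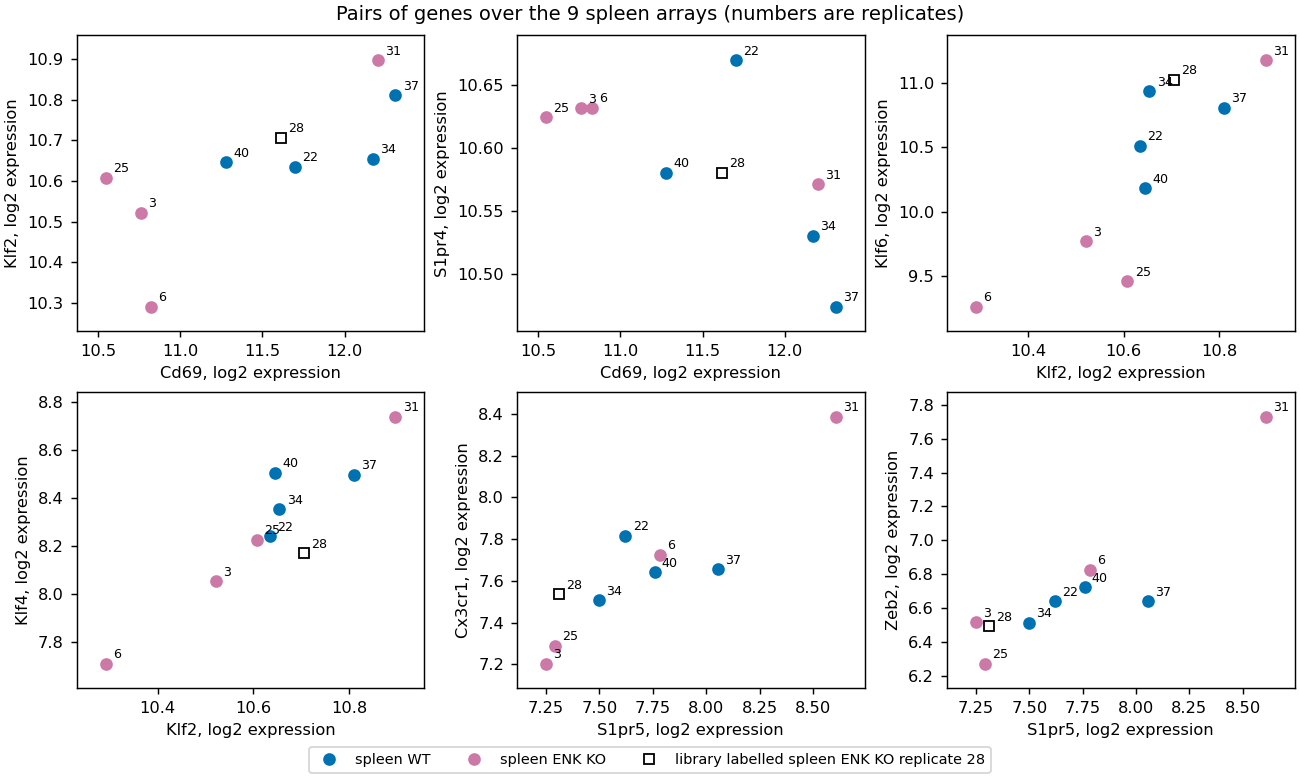
Log2 expression of 6 pairs of genes over the 9 spleen arrays (one gene on each axis, numbers are replicates, blue WT, pink ENK KO, open square the library labelled replicate 28). ENK KO replicates 3, 6 and 25 sit at low Cd69 and low Klf6, and ENK KO replicate 31 stands apart at high S1pr5, Cx3cr1 and Zeb2.

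The genes whose pattern was most like each of the 6 were taken as the 3 genes of highest r among the 13641 over the 8 spleen arrays without replicate 28, and r is given as a description. For Klf2 these were Arhgap5 (0.98), Klf4 (0.96) and Bbs2 (0.96), with r over 9 arrays of 0.91, 0.92 and 0.96. For Cd69 they were Bhlhe40 (0.98), Cd28 (0.98) and Myo3b (0.98), with 0.96, 0.88 and 0.88 over 9 arrays. Bhlhe40 encodes a transcription factor induced on T cell activation and ranged from 6.88 to 8.91 over the 8 arrays, and Cd28 encodes the costimulatory receptor and ranged from 10.8 to 11.8. For S1pr5 they were Itgb1, an integrin chain (0.95), Mirlet7i (0.94) and Kdm4d (0.93), with 0.70, 0.91 and 0.89 over 9 arrays.

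For S1pr1 the most alike genes were Abhd12 (0.99), Card19 (0.99) and Ppdpf (0.97), with 0.91, 0.74 and 0.99 over 9 arrays. For S1pr4 they were Topbp1 (0.97), Cep164 (0.96) and Zdhhc3 (0.93), with 0.70, 0.87 and 0.56 over 9 arrays. For Foxo1 they were Adig (0.95), Tspan5 (0.94) and Mfsd4b5 (0.94), of which Adig and Tspan5 had r of 0.02 and 0.06 with replicate 28 included. Genes with r over 0.9 over the 8 arrays numbered 74 for S1pr1, 61 for Cd69, 41 for Klf2, 16 for S1pr5, 12 for S1pr4 and 10 for Foxo1. Abhd12 ranged from 8.52 to 8.60 over the 8 arrays, so a high r can describe a small variation.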

How the data were processed

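Gene expression was measured on 14 single-colour Affymetrix arrays, 1 per sample, from 300 ng of total RNA per the labels' protocols. The deposited values are log2 expression levels per probe set, and the submitters' processing notes name RMA as the authors' method. RMA subtracts background, gives arrays a common distribution and summarises probes on a log scale, which can compress differences near the low end. The sources used here do not give the program that ran RMA or the build the probe sets were designed on. Nor do they say whether thymus and spleen arrays were processed jointly. S1pr1 had the same value, 6.5536, on thymus WT replicates 38 and 32 and thymus ENK KO replicate 29. In spleen it was 12.0151 on WT replicates 40 and 34 and ENK KO replicate 3. Whether such ties come from separate processing of the tissues was not tested. Depth has no counterpart on arrays, and the number of arrays limits the precision.

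Of 28213 probe sets, 21640 had 1 gene symbol in the platform annotation, 1321 several and 5252 none in the table used. RefSeq (GRCm38.p6) found 21553 of the 21640 by gene ID and changed 0 symbols. Each of the 19937 genes was read by its probe set of highest mean. Tests covered the 13641 genes that exceeded 6.76, the 40th percentile over the whole table, on 2 or more arrays.

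One linear model with a mean per group was fitted over all arrays in limma 3.58.1 under R 4.3.3 (eBayes with a trend), and a Benjamini-Hochberg adjusted p under 0.05, over the 13641 genes, counted as a call. The 4 groups came from the labels. Whether each sample is a separate animal is not stated outright, so a p-value covers the spread among samples, which may be technical. Covariation was tested by two-sided exact permutation in Python 3.11.15 with SciPy 1.17.1, over 9 spleen arrays, reading the groups as 1 set. The comparisons share arrays and are not independent. The fit was tested on simulated data with known differences.

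The 6 genes, the lists and the tests were chosen with earlier results of these data known, and the 48 relations with list genes after the data were seen. Named genes are the 6 genes, 5 sort checks, of each list up to 4 genes of smallest p per comparison, and the 3 genes most alike to each of the 6. Xist, Kdm5d, Rag1, En2, Fos, Lyz2, S100a8, Ms4a1, Alas2 and Ppbp were named outside this rule. So were the list genes named for their relations with Klf2, S1pr5 or Cd69. Alternatives covered filters, normalization, variance models, array weights, probe set means, covariates, subsets of animals and separate tissues. They also covered an unadjusted p of 0.05 with a fold of 1.5, and each array left out in turn. The sex covariate and the setting with males only used the labelled sex. Promoters came from a RefSeq table of 32851 windows, which held 4 of the 6 genes.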

Additional observations from a re-analysis of the deposited data

Results flagged for a closer look

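Of the 12 groups of spleen values tested for an array far from the others (6 genes in 2 groups of 4 and 5 arrays), 2 held one, where chance alone flags about 1 in 20 groups. Spleen WT replicate 37 was the highest of the 4 WT arrays in Klf2, at 10.81, while the other 3 lay between 10.64 and 10.65. Spleen WT replicate 22, the array whose Xist level goes against its label, was the highest of the 4 WT arrays in S1pr1, at 12.31, while the other 3 lay between 12.01 and 12.02. Of the WT S1pr1 values 2 are tied, and the rate of 1 in 20 assumes no ties, so it may not hold for this group.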

How the results depend on the processing

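The number of the 6 genes called between genotypes was 0 in each tissue and for the difference between tissues under every alternative run, the looser call rule included (limma). The number called between spleen and thymus stayed between 5 and 6 in WT and between 4 and 5 in ENK KO. Klf2, Foxo1, S1pr1 and S1pr4 were called in both genotypes under every alternative, with WT differences of 2.75 to 2.90, 2.12 to 2.27, 5.46 to 5.61 and 2.09 to 2.30 log2 units. S1pr5 in WT passed with array weights (0.60, adjusted p 0.0270, limma) and without spleen ENK KO replicate 31 (0.57, adjusted p 0.00329). Cd69 in ENK KO did not pass without the 2-month-old animals or with males only (1.24 in both, adjusted p 0.0895 and 0.139, limma) or without thymus ENK KO replicate 1 (0.97), settings that leave 1 thymus ENK KO array, assumed to vary like the other groups.

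Small genotype differences changed sign, and the cause was not tested. In spleen Klf2 was 0.014 with the age covariate, 0.0507 without the 2-month-old animals and 0.0337 with males only. Foxo1 was -0.0025 with array weights and -0.015 without replicates 28 and 22, and -0.0281 to 0.0556 with 1 array left out. S1pr1 was 0.0615 with males only, and -0.17 to 0.0026 with 1 array left out. S1pr5 was 0.0038 without the 2-month-old animals, and -0.324 to 0.0224 with 1 array left out. In thymus Klf2 was 0.0312 with the sex covariate, 0.118 with the age covariate and 0.0079 without the 2-month-old animals, and -0.0799 to 0.0727 with 1 array left out. S1pr4 in thymus was 0.0635 with array weights, 0.0070 without the 2-month-old animals and 0.120 with males only, and -0.109 to 0.0999 with 1 array left out. S1pr5 in thymus was -0.0232 to 0.131 with 1 array left out. The spleen minus thymus difference of the genotype effect was 0.0429 for Klf2 without the 2-month-old animals and 0.104 with males only, 0.0615 for S1pr1 with males only, and for S1pr4 -0.0126 with array weights, -0.0558 with males only and -0.0555 to 0.154 with 1 array left out. Cd69 in spleen kept its sign, from -0.93 without ENK KO replicate 31 to -0.41 without the 2-month-old animals.

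The number of called pairs among the 6 genes was 0 to 1 with 1 array left out, the 1 being S1pr4 with Cd69 without WT replicate 22. The KLF genes called higher in ENK KO spleen numbered 4 without replicate 28, beside 2 with it. No paired analysis was possible because no replicate number occurs in more than 1 group. With 2 to 5 arrays in a group, small genotype differences were not detectable, and S1pr1 lay near background in thymus.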
